A study of Mus musculus with 12 samples.

Results

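Fkbp5, Glul, Cdkn1a, Ddit4, Bnip3, Retreg1, Eif4ebp1 and Tsc22d3 are 8 genes known to respond to glucocorticoid hormones, fasting or other catabolic stress. Most of them had been picked because they were lower in the dysferlin-null QF muscle of these same arrays, so their values in that comparison are given as a description without a test. Every probe set whose platform annotation named 1 of the 8 genes was taken, which gave 10 probe sets of 12422, with 2 each for Glul and Cdkn1a. All 10 were among the 10331 probe sets kept by a filter on low values, and 0 of their 120 values lay at the intensity floor.

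The study measured total RNA of skeletal muscle on 12 single-channel arrays, 3 in each of 4 groups. Dysf_null mice were of the line C57BL/10-SJL.Dysf and labelled Dysf -/-, Control mice were C57BL/10 and labelled Dysf +/+, and all were aged 3 weeks. Of each genotype the muscles called QF and TA were taken, read here as quadriceps femoris, a proximal muscle, and tibialis anterior, a distal one. The Dysf_null line carries the dysferlin allele of the SJL strain together with whatever SJL sequence surrounds it, and nothing in the labels says that the controls were littermates. Because 0 probe sets carried the name Dysf, the genotype could not be checked on these arrays. Whether replicate arrays were made from separate mice is not stated, and p-values therefore measure the spread between arrays alone, some of which may be technical. The labels record neither feeding nor hormone levels, and the name given to the 8 genes rests on what is known of them.

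In skeletal muscle, glucocorticoids act through the glucocorticoid receptor, which enters the nucleus and switches on genes that slow growth and release amino acids. Fasting acts through the same receptor and through FoxO transcription factors, which are held back by insulin, and it lowers the activity of mTORC1, the kinase complex that drives protein synthesis. The genes below stand at several points of this response, from feedback on the receptor to translation, autophagy and the cell cycle.

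Of the 8 genes, 7 had 1 or more promoter windows in RefSeq (GRCm38.p6), 13 windows in all, each taken here as the 250 bases before an annotated start. Eif4ebp1 had none. The windows of 4 genes are printed 5' to 3' on the gene's strand, because they represent the receptor feedback, mTORC1 and mitochondrial arms of the response. Capitals mark the hypoxia core ACGTG, the E-box CACGTG that contains it, and the glucocorticoid receptor site AGAACA (one arm of its palindrome), which reads TGTTCT on the opposite strand. The windows lie at chr17:28486150-28486399 for Fkbp5, chr10:59951771-59952020 for Ddit4, chr7:138909507-138909756 for Bnip3 and chrX:140600523-140600772 for the outermost start of Tsc22d3, all on the minus strand.
Fkbp5: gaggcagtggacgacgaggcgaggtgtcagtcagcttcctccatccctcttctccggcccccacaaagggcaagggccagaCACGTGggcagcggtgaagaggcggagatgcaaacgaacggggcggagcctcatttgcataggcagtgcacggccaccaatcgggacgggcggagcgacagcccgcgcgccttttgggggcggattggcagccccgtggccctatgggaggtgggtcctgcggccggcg
Ddit4: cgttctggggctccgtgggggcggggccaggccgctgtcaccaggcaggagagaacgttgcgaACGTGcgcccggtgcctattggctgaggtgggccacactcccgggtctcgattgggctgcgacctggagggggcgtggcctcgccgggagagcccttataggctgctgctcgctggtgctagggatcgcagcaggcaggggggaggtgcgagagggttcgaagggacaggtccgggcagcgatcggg
Bnip3: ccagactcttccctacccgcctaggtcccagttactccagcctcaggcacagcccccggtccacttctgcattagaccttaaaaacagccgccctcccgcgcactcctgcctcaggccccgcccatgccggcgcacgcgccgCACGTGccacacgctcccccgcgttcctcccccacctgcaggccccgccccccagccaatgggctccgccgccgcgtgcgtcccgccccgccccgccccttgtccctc
Tsc22d3: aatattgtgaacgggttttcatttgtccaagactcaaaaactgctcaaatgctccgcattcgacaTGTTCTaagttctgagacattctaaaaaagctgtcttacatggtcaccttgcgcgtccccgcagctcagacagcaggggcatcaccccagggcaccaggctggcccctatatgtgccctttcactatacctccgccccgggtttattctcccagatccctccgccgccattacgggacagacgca

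All motifs were searched on both strands. The core ACGTG was found in 5 of the 13 windows, from 4 genes (Fkbp5, Ddit4, Bnip3 and Retreg1), and in 16.6% of all 32851 promoter windows of the same length. CACGTG, which always contains that core, was found in 3 of the 13, each of another gene, and in 6.02% of all windows. The receptor site AGAACA was found in 4 of the 13, from Retreg1 and Tsc22d3, and in 16.1% of all windows. A pair of these sites facing each other with 3 bases between was found in 0 of the 13 windows and in 0.00913% of all. The FoxO site TGTTTAC and the TATA box TATAAA were also found in 0 of the 13, against 3.17% and 12.4% of all windows. GGGCGG, the GC box, was found in 9 of the 13 windows, against 32.7% of all windows. CCAAT was found in 4 of the 13, against 33.8% of all. Several of the 13 windows belong to 1 gene, 4 of them to Retreg1 and 3 to Tsc22d3. A match describes the letters of the window only. The 8 genes lay on 7 chromosomes, with Fkbp5 and Cdkn1a on chromosome 17 separated by 15 protein-coding genes, and none lay on chromosome 6, which carries Dysf.

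Values are log2 of the deposited intensities after quantile normalization, and differences are given as Dysf_null minus Control with the standard error (SE) of a limma fit over all 12 arrays. The deposited arrays had nearly equal trimmed means (200.1 to 200.2). The arrays numbered 2 of both QF groups stood apart from the other 10. Their median correlations with the remaining arrays were 0.876 for Dysf_null and 0.866 for Control, against 0.926 to 0.959 for the others. Their median deposited intensities were 107 and 106, against 72.8 to 84.3. Without both of them the QF difference of each probe set kept its sign. It was -1.18 for Fkbp5, -0.50 for Tsc22d3, -1.57 for Glul 94852_at and -0.35 for Glul 161826_r_at. For Ddit4 it was -0.84, for Eif4ebp1 -0.88, for Bnip3 -1.08 and for Retreg1 -1.37, while Cdkn1a 94881_at gave -2.42 and Cdkn1a 98067_at gave -0.03. All 6 muscle fibre markers were above the floor on every array.

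Fkbp5 encodes the co-chaperone FKBP51, which lowers the hormone affinity of the glucocorticoid receptor and is itself induced by it. Its log2 level was 7.97, 7.63 and 7.70 on the Dysf_null_QF arrays, against 8.77, 8.98 and 9.16 on the Control_QF arrays. In TA it was 7.09, 7.83 and 7.70 in Dysf_null muscle, against 8.58, 8.44 and 8.23 in Control muscle. Every Dysf_null array was below every Control array in both muscles. The mean difference was -1.20 ± 0.22 in QF (SE, n = 3 each). In TA it was -0.88 ± 0.22 with a 95% confidence interval of -1.35 to -0.40. The stated choice of most genes rested on QF, but earlier results of these data were known when it was made. The TA difference did not pass the test across all probe sets (limma, adjusted p = 0.211), nor with the replicate number as a block (limma, adjusted p = 0.0922). It passed with estimated array weights (difference -0.76, limma, adjusted p = 0.0317). Of 23 alternatives this was the 1 under which it passed, and the highest adjusted p was 0.722 (limma). Ordered from low to high, Dysf_null_TA and Dysf_null_QF overlapped, and Control_TA and Control_QF each stood apart from the group below. In these bulk samples, less RNA per cell cannot be told apart from fewer cells of a type that carries it.

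Tsc22d3 encodes GILZ, a leucine zipper protein induced directly by the glucocorticoid receptor. Its level was low and spread widely, at 6.32, 6.98 and 4.84 in Dysf_null_QF, against 6.61, 7.43 and 5.53 in Control_QF. In TA the values were 5.34, 6.02 and 5.54 in Dysf_null, against 6.71, 6.34 and 5.85 in Control. The genotypes overlapped in both muscles, and in QF the array numbered 2 was the highest and the array numbered 3 the lowest in each genotype. The difference was -0.48 ± 0.57 in QF, with 0.29 as its SE when the replicate number was a block. Between arrays of the same number it was -0.29, -0.45 and -0.68, all of one sign. Leaving out the third Dysf_null_QF array alone, which leaves the Control array of its number unmatched, gave 0.12. In TA the difference was -0.66 ± 0.57, with a 95% interval of -1.89 to 0.56 (limma, adjusted p = 1).

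Glul encodes glutamine synthetase, which muscle uses to export nitrogen as glutamine and which glucocorticoids induce. Probe set 94852_at read 7.47, 7.43 and 6.90 in Dysf_null_QF, against 8.99, 8.69 and 8.41 in Control_QF. In TA it read 7.72, 7.47 and 7.67 in Dysf_null, against 8.03, 7.46 and 7.54 in Control. The groups were apart in QF and overlapped in TA. The difference was -1.43 ± 0.24 in QF and -0.05 ± 0.24 in TA (limma, adjusted p = 1), with a 95% interval in TA of -0.57 to 0.47. The second Glul probe set, 161826_r_at, differed by only -0.27 ± 0.16 in QF, and its groups overlapped at 8.36, 8.56 and 8.24 in Dysf_null, against 8.73, 8.70 and 8.55 in Control. It carries the platform's r suffix, used where some of the usual rules for choosing probes were dropped.

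Ddit4 encodes REDD1, an inhibitor of mTORC1 that is induced by glucocorticoids, fasting and hypoxia. Its level in QF was 8.36, 8.23 and 8.89 in Dysf_null, against 9.35, 8.99 and 9.54 in Control. In TA it was 8.66, 8.93 and 8.66 in Dysf_null, against 7.63, 8.17 and 7.89 in Control. All Dysf_null arrays were below all Control arrays in QF and above them in TA. The differences were -0.80 ± 0.22 in QF and 0.85 ± 0.22 in TA, where the 95% interval was 0.38 to 1.32. The TA difference did not pass the test (limma, adjusted p = 0.235). It passed with the replicate number as a block (limma, adjusted p = 0.00672) and with array weights (difference 0.81, limma, adjusted p = 0.0185). Under the other 21 of 23 alternatives it did not pass, and over all of them the difference lay between 0.72 and 0.98. Groups that were apart in this way, lower in QF and higher in TA, were seen for 0.174% of all probe sets. The choice on QF partly sets the QF side of this pattern, so that share is no measure of its rarity here. Whatever the QF values, groups apart with Dysf_null higher in TA were seen for 6.92% of all probe sets. Ordered from low to high, Control_TA stood apart below Dysf_null_QF, which overlapped Dysf_null_TA, and Control_QF stood apart above.

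Summed granulocyte markers also ran in opposite directions in the 2 muscles. Of the 5 measured (2 of them above the floor on all 12 arrays), 1 fell in QF (S100a9), against 0.155% of all probe sets called lower. In TA 2 rose (S100a8 and S100a9), against 0.407% of all called in either direction. They were named after their values were seen. In QF 4 of the 5 were negative, 3 of them without overlap of the groups, and Ltf was at 0.02. All 5 were positive in TA. The summed intensity was 173 to 385 in Dysf_null_QF against 504 to 583 in Control_QF, and 764 to 952 in Dysf_null_TA against 192 to 297 in Control_TA. The part of these cells in the Ddit4 values was not tested.

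Eif4ebp1 encodes 4E-BP1, which blocks the cap-binding factor eIF4E until mTORC1 phosphorylates it. It read 9.02, 8.41 and 8.99 in Dysf_null_QF, against 9.76, 9.83 and 9.95 in Control_QF. In TA it read 8.37, 8.43 and 8.43 in Dysf_null, against 8.86, 8.73 and 8.58 in Control. The groups were apart in both muscles. The difference was -1.04 ± 0.17 in QF, and -0.32 ± 0.17 in TA with a 95% interval of -0.69 to 0.05, which did not pass (limma, adjusted p = 1). Array abundance of this mRNA says nothing of its phosphorylated protein.

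Bnip3 encodes a receptor on the outer mitochondrial membrane that directs mitochondria to autophagy and is known as a target of FoxO3 and of hypoxia-inducible factor. It read 9.08, 9.17 and 9.78 in Dysf_null_QF, against 10.36, 10.78 and 10.61 in Control_QF. In TA it read 9.41, 9.62 and 9.38 in Dysf_null, against 9.41, 9.61 and 9.42 in Control. The QF groups were apart and the TA groups nearly coincided. The difference was -1.24 ± 0.18 in QF, and -0.01 ± 0.18 in TA with a 95% interval of -0.40 to 0.38.

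Retreg1 encodes FAM134B, a receptor that directs sheets of endoplasmic reticulum to autophagy. It read 11.14, 10.61 and 10.78 in Dysf_null_QF, against 12.46, 12.32 and 12.21 in Control_QF. In TA it read 11.30, 10.78 and 11.08 in Dysf_null, against 11.31, 11.43 and 11.34 in Control. The QF groups were far apart, and in TA the highest Dysf_null array lay just below the lowest Control array. The difference was -1.49 ± 0.16 in QF, and -0.31 ± 0.16 in TA with a 95% interval of -0.64 to 0.03, which did not pass (limma, adjusted p = 1).

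Cdkn1a encodes p21, an inhibitor of cyclin-dependent kinases induced by p53, FoxO factors and glucocorticoids. Probe set 94881_at read 5.42, 7.00 and 6.29 in Dysf_null_QF, against 8.23, 8.04 and 8.14 in Control_QF. In TA it read 6.69, 6.14 and 6.29 in Dysf_null, against 7.20, 6.87 and 7.37 in Control. The groups were apart in both muscles, and the Dysf_null_QF arrays were far more spread than the Control_QF arrays. The difference was -1.90 ± 0.36 in QF, and -2.42 without both QF arrays numbered 2. In TA it was -0.77 ± 0.36, with a 95% interval of -1.55 to 0.01 (limma, adjusted p = 1). The other Cdkn1a probe set, 98067_at, gave 8.66, 8.21 and 7.85 in Dysf_null_QF, against 8.14, 8.51 and 8.43 in Control_QF. Its groups overlapped, its difference was -0.12 ± 0.25 in QF and -0.05 ± 0.25 in TA, and the QF difference changed sign to 0.08 without the third Dysf_null_QF array. The 2 probe sets of this gene thus differed in what they showed in QF.

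**Figure D1:**
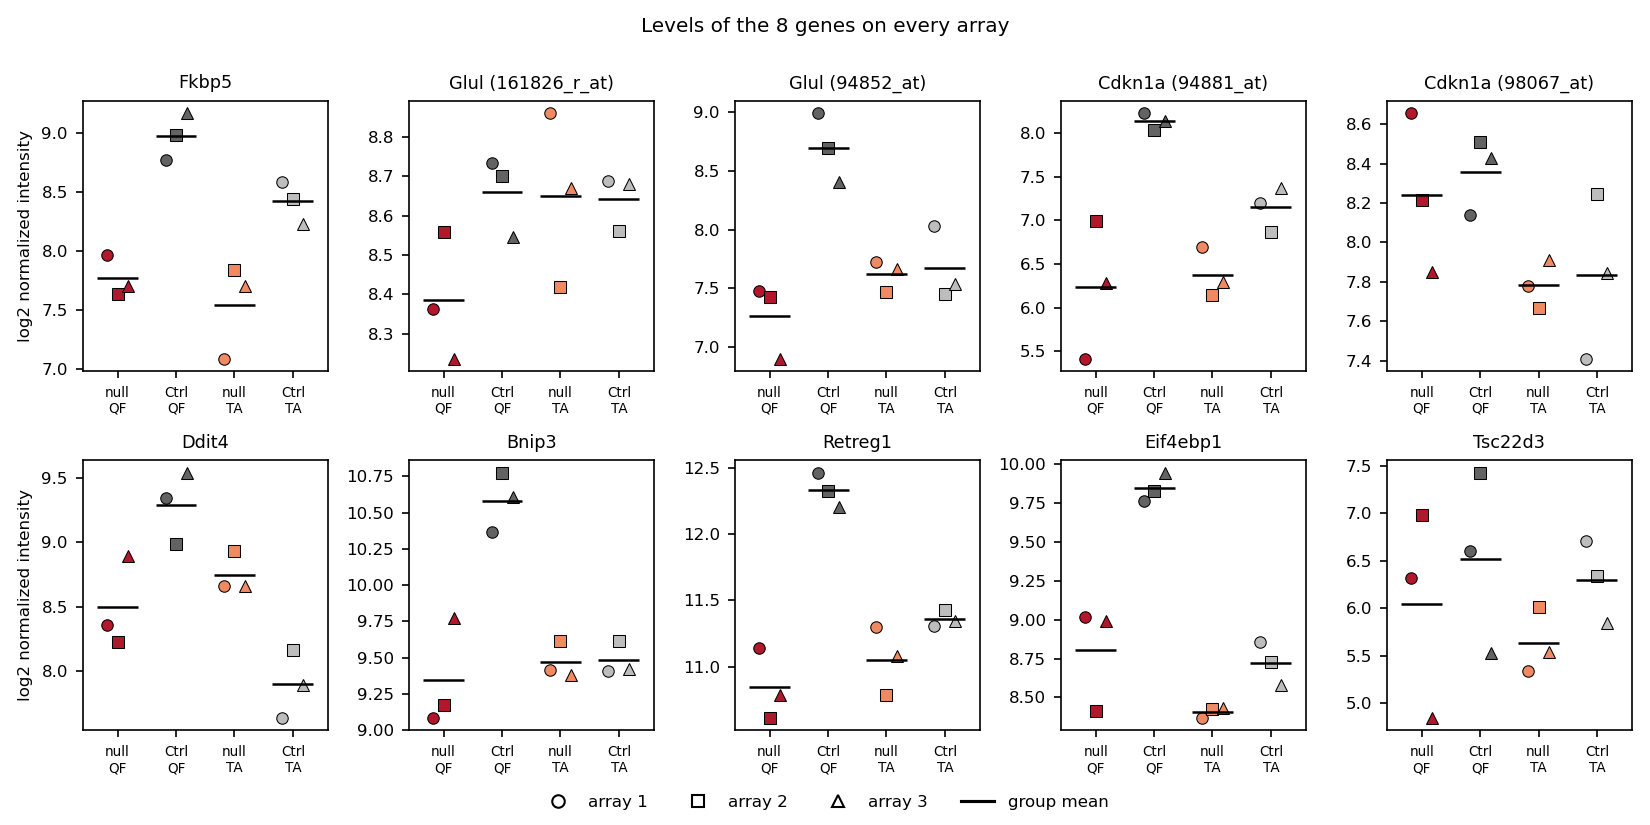
Log2 normalized intensity (vertical axis) of the 10 probe sets of the 8 genes on each array, by group, with Dysf_null left of Control in each muscle; points are single arrays. Control_QF has the highest group mean in all 10, and Ddit4 is the probe set whose Dysf_null arrays are all below Control in QF and all above it in TA.

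In QF, 7 of the 10 probe sets had all Dysf_null arrays below all Control arrays, and the other 3 overlapped. Over all probe sets tested, 3.45% were apart with Dysf_null lower and 4.08% with Dysf_null higher. Because the genes were picked on this comparison, nothing is read from that count. The median difference of the 10 probe sets was -1.12, against -0.01 over all probe sets tested. With each gene counted once by its probe set of highest mean, the median was -0.92, and with the other probe set of Glul and Cdkn1a it was -1.22.

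In TA, 0 of the 10 probe sets passed the test (limma, adjusted p under 0.05), against 0.407% of all probe sets tested. At an unadjusted p under 0.05 there were 2, Fkbp5 lower and Ddit4 higher, against 4.82% of all. With the replicate block 1 passed, Ddit4, against 1.54% of all, and with array weights 2 passed, Ddit4 and Fkbp5, against 1.86%. Dysf_null arrays were all below Control arrays for 4 probe sets (Fkbp5, Cdkn1a 94881_at, Retreg1 and Eif4ebp1), against 6.87% of all probe sets. They were all above for 1, Ddit4, against 6.92%. The same 4 probe sets were below in both muscles, against 0.697% of all, a count that the choice on QF partly sets. The median difference of the 10 was -0.18 in TA, against -0.00 over all probe sets.

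**Figure D2:**
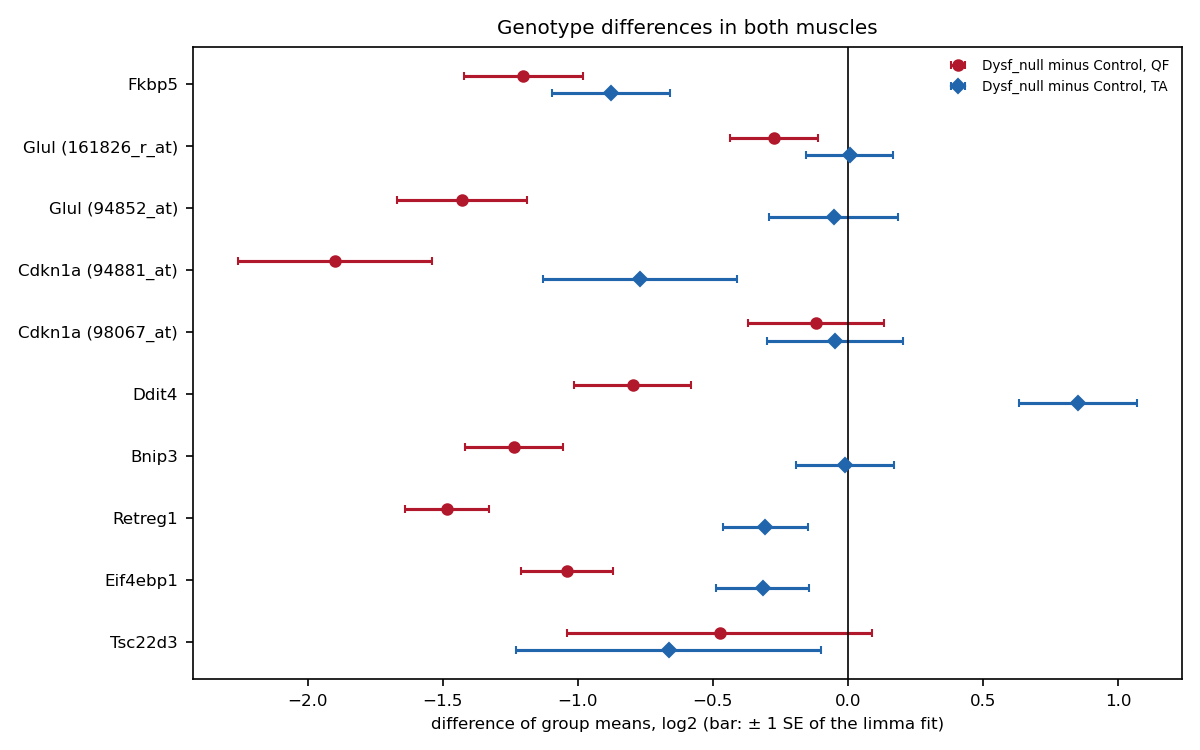
Difference of group means (horizontal axis, log2, Dysf_null minus Control) for each probe set in QF (circles) and TA (diamonds), with bars of 1 SE of the limma fit. All 10 QF differences are below 0, while in TA only Ddit4 stands clearly above 0, at 0.85.

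In Control mice these genes were lower in TA than in QF on most arrays. Compared with Control_QF, all 10 probe sets had a lower mean in Control_TA, with a median difference (TA minus QF) of -0.98, and 7 were apart on every array, against 5.6% of all probe sets. Ddit4 differed by -1.39 ± 0.22, Eif4ebp1 by -1.12 ± 0.17, Bnip3 by -1.10 ± 0.18 and Glul 94852_at by -1.02 ± 0.24. In Dysf_null mice, 6 of the 10 had a higher mean in TA than in QF and 4 a lower one, with a median of 0.13, and 0 were apart on every array, against 10.2% of all probe sets in either direction. Ddit4 differed there by 0.26 ± 0.22, Bnip3 by 0.13 ± 0.18 and Retreg1 by 0.21 ± 0.16. The 4 lower ones were Cdkn1a 98067_at at -0.45 ± 0.25, Tsc22d3 at -0.41 ± 0.57, Eif4ebp1 at -0.40 ± 0.17 and Fkbp5 at -0.23 ± 0.22. For the same 7 probe sets that were lower in Dysf_null QF without overlap, all 3 Control_QF arrays stood above the other 9 arrays, as they did for 0.929% of all probe sets. Both muscle comparisons use the QF arrays on which the genes were picked, so they are described without a test.

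Whether the genes moved together was examined array by array. Over the 12 arrays, 42 of the 45 pairs of probe sets had a positive Pearson correlation, with a median r of 0.47 and a range of -0.21 to 0.91. That figure carries the group means by which the genes were picked. When each probe set's group mean was subtracted, 20 pairs were positive and 25 negative, and the median r was -0.08 with a range of -0.77 to 0.66 (n = 12 arrays, with 8 degrees of freedom left). Spearman's rho gave a median of -0.13. Within QF alone the median r was -0.05, within TA alone it was -0.18, and without both QF arrays numbered 2 it was -0.03. The points share arrays and array-wide scaling, and dividing each array by its median in place of quantile normalization gave a median r of 0.39 over the 28 pairs of the 8 genes, against -0.01 with quantile normalization. Deposited values without further scaling gave -0.003 over the same 28 pairs. Of 25 alternatives, scaling to the median was the 1 that moved this value.

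On every array between 3 and 7 of the 10 probe sets were above their group mean, so none was uniformly high or low. The strongest negative pairs after removal of group means were Glul 94852_at with Ddit4 (r = -0.77), Glul 94852_at with Bnip3 (-0.77), Cdkn1a 94881_at with Eif4ebp1 (-0.76) and Ddit4 with Tsc22d3 (-0.75). For Ddit4 with Tsc22d3, r was -0.98 within QF and 0.03 within TA. Among the positive ones were the 2 Glul probe sets with each other (0.66), Glul 94852_at with Tsc22d3 (0.63) and Fkbp5 with Eif4ebp1 (0.50). Ddit4 with Bnip3 was also positive (0.56, with 0.48 within QF and 0.89 within TA). The 2 Cdkn1a probe sets, though of 1 gene, were negative with each other (-0.48). Ddit4 and Bnip3, which were higher together within groups, differed between genotypes in TA by 0.85 and -0.01.

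**Figure D3:**
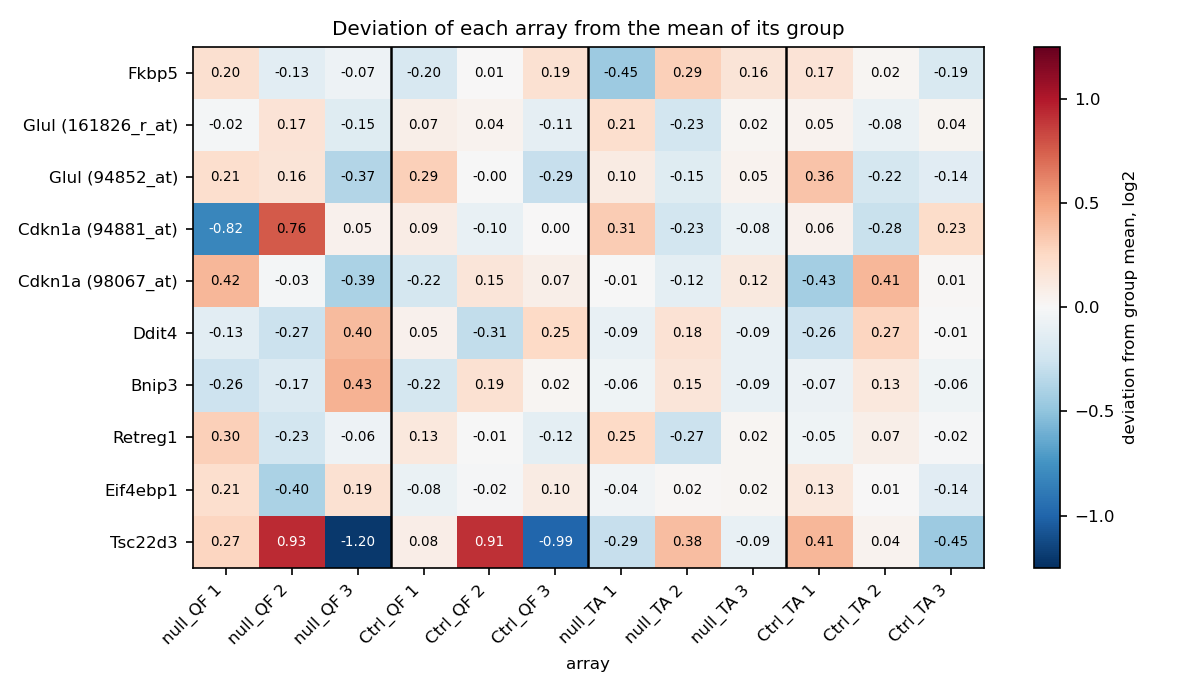
Deviation of each probe set from its group mean (log2, colour scale) on each of the 12 arrays, with Dysf_null arrays left of Control arrays in each muscle. No array is a single colour: between 3 and 7 of the 10 probe sets lie above the group mean on each.

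**Figure D4:**
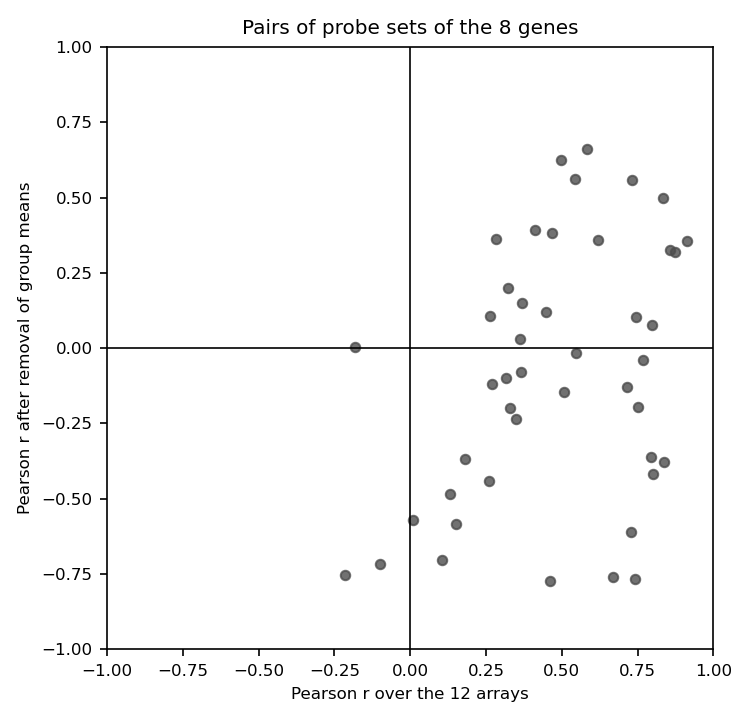
Pearson r of each of the 45 pairs of probe sets over the 12 arrays (horizontal axis) against r after the group means were removed (vertical axis). Nearly all points lie right of 0 on the horizontal axis, 42 of 45, whereas 20 lie above and 25 below 0 on the vertical axis.

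Arrays of the same number were also compared directly, because they deviated together from their group means. This pairing was inferred from these data and not from the labels. It was weaker in TA (r = 0.182, 0.114 and 0.231) than in QF (r = 0.390, 0.711 and 0.660), which limits the calls made in TA with the block. In QF the Dysf_null array was below the Control array of its number for 9, 10 and 10 of the 10 probe sets for the numbers 1, 2 and 3, with median differences of -0.89, -1.15 and -0.89. The exception was Cdkn1a 98067_at for number 1, at 0.52. In TA it was below for 6, 7 and 7, with medians of -0.16, -0.31 and -0.10.

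The wider pathways were described through 6 lists of other genes, 113 in all, of which 83 were measured. The lists were chosen with earlier results of these data known, so counts from them describe the pathways and do not test them. In QF 3 of the 83 fell and 0 rose (limma, adjusted p under 0.05), against 0.155% of all probe sets called lower and 0.455% called in either direction. Their median difference was -0.14, and 50 were below 0. In TA 0 passed in either direction, with a median of -0.02.

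Of 23 measured glucocorticoid-responsive genes, 2 fell in QF, both metallothioneins, which bind zinc and are induced by glucocorticoids and metals. Mt2 differed by -1.82 ± 0.22 (limma, adjusted p = 0.00439) and Mt1 by -1.56 ± 0.28 (limma, adjusted p = 0.028). The Mt2 call held when any 1 of the 12 arrays was left out, whereas Mt1 lost it in 8 of the 12 cases, with adjusted p up to 0.135, and in the fit without both QF arrays numbered 2. It held without the first Dysf_null_QF, the third Control_QF, the first Dysf_null_TA or the first Control_TA array, and was lost without any of the other 8. With the replicate block 4 of the 23 fell, against 0.958% of all probe sets lower under the block, the further ones being Cebpd (limma, adjusted p = 0.00307) and Zbtb16 (limma, adjusted p = 0.00847), named after their values were seen. The list's median was -0.17 in QF, and 0 passed in TA in the main fit. With the replicate block Mt2 fell in TA (limma, adjusted p = 0.039), against 0.619% of all probe sets lower in that fit. Of this list 1 gene fell in TA with array weights, against 1.86% of all probe sets called, and 1 without both QF arrays numbered 2.

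Of 15 measured genes of FoxO signalling, atrophy and autophagy, 1 fell in QF, the lysosomal protease Ctsl, by -0.79 ± 0.12 (limma, adjusted p = 0.0102). Its call held when any 1 array was left out, but it was lost with array weights, without further scaling, and when both QF arrays numbered 2 were dropped. With the replicate block 6 of the 15 fell, against the same 0.958% of all probe sets. Besides Ctsl they were, named after their values were seen, Sqstm1, Cited2, Psmd11, Gabarapl1 and Sesn1, with limma adjusted p from 0.00282 to 0.0482. The median of the list was -0.44 in QF and -0.10 in TA, where 0 passed without the block. With the block 2 fell in TA, Sqstm1 (limma, adjusted p = 0.0135) and Psmd11 (limma, adjusted p = 0.0282), against 0.619% of all probe sets lower in that fit.

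In the other 4 lists 0 genes passed in QF or TA in the main limma fit. An unadjusted p under 0.05 in QF was reached by 6.77% of all probe sets. Among 16 genes of mTOR and ATF4 signalling the median in QF was 0.04, and 2 had an unadjusted p under 0.05, Atf4 at -0.35 and Ppp1r15a at -0.88, with Eif2ak3 next at 0.50. Among 7 genes of p53 and growth arrest 1 had such a p in QF, Gadd45b at -0.94 (limma, adjusted p = 0.0156 with the block), followed by Btg2 at 0.33 and Mdm2 at 0.19. In TA the antiproliferative gene Btg2 differed by 0.87 (limma, adjusted p = 0.094, and 0.00168 with the block). Of this list 1 gene rose in TA with array weights, against 1.86% of all probe sets called. The same count rose in TA without further scaling, where 36 of all probe sets were called in either direction, and without both QF arrays numbered 2. Among 12 hypoxia genes 2 had such a p, P4ha1 at 0.85 and Slc2a1 at -1.05, with Hif1a next at 0.30 and a list median of -0.02. Among 10 genes of fasting fuel use there were 3, Cpt1a at 1.49, Acadm at -0.39 and Bckdha at -0.48, and the median was -0.35.

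**Figure D5:**
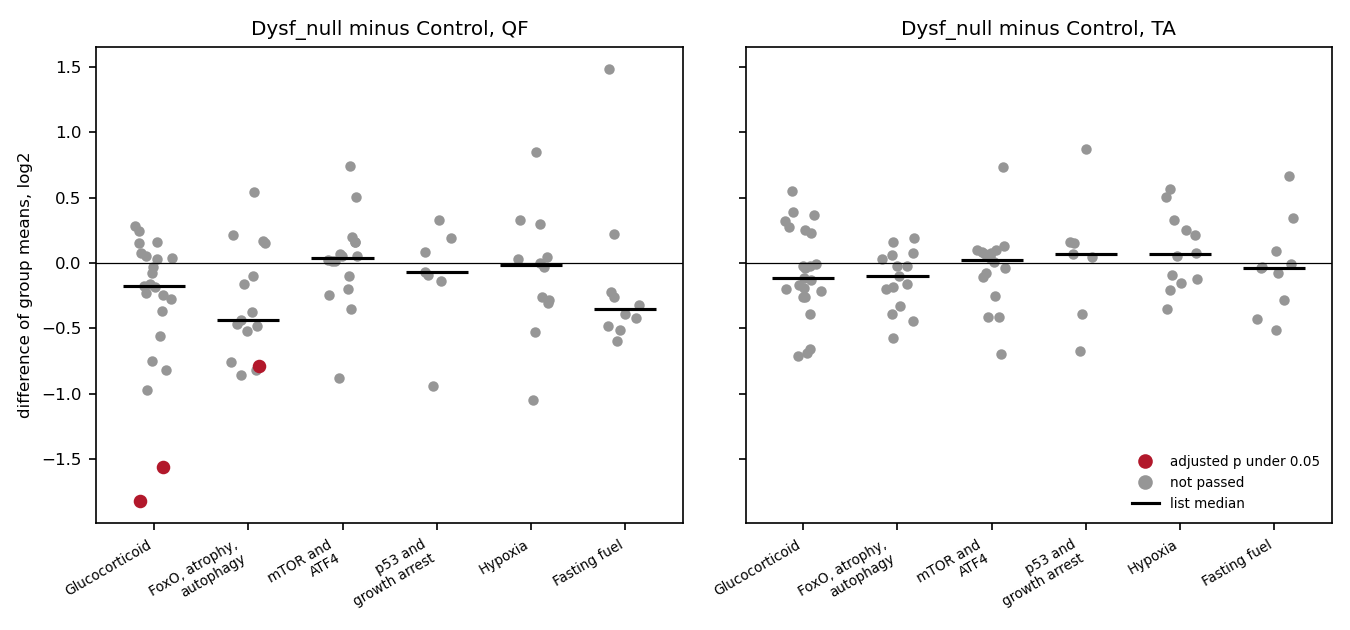
Differences of group means (log2, Dysf_null minus Control) of the measured genes of each pathway list in QF and in TA; each point is 1 gene. The genes that passed in QF (Mt2, Mt1 and Ctsl) lie at -1.82, -1.56 and -0.79, and no gene passed in TA.

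Markers of several cell types were set beside the members' QF values. All 6 fibroblast markers were positive (0 passed by limma, 4 at an unadjusted p under 0.05), with summed intensities of 24483 to 36864 in Dysf_null_QF against 15714 to 23280 in Control_QF. All 7 measured macrophage markers were positive, with 0 passing and 3 at such a p, which 6.77% of all probe sets reached in QF. The 6 muscle fibre markers were all negative, 0 passed and 0 reached such a p, and their summed intensity was 83776 to 88769 in Dysf_null_QF against 90297 to 96101 in Control_QF. In the other lists, Bpgm of the red cell markers and Thy1 of the lymphocyte markers rose in QF (limma, adjusted p under 0.05). They were named after their values were seen, and 0.455% of all probe sets were called in QF. Of the 4 measured lymphocyte markers, 2 were positive and 2 negative in QF. In TA 3 of the 4 measured red cell markers rose and the macrophage marker Cd68 fell, against 0.407% of all probe sets called. The other 6 measured macrophage markers were positive in TA, and the median of that list was 0.42. As in QF, all 6 fibroblast markers were positive in TA and all 6 muscle fibre markers negative, with 0 passing. Their medians were 0.38 and -0.16 in TA, against 0.71 and -0.11 in QF. The part of a changed cell makeup in the members' QF values was not tested.

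Among all other genes, those whose levels over the 12 arrays were most like the mean profile of the 8 genes were Npc1 (r = 0.944), Zfp503 (0.942), Gabrr2 (0.922), Ctsl (0.911), Pnpla2 (0.911), Igfbp3 (0.910), Plin4 (0.886) and Oser1 (0.885). This ranking carries the group means by which the 8 genes were picked. The mean of Zfp503 lay at the intensity floor, 4.53, in both Dysf_null groups. Npc1 moves cholesterol out of lysosomes, and Pnpla2 encodes the triglyceride lipase ATGL. After group means were removed, the most alike were Gpr33 (0.987), Dalrd3 (0.869), Tasor (0.866), Sod1 (0.864), Pax5 (0.855), 4933434E20Rik (0.852), Cdh4 (0.851) and Rpf1 (0.837). The 2 sets of 8 shared no gene. Each is the top of a ranking over all other genes, the second with 8 degrees of freedom left, and neither was tested.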

How the data were processed

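Each array's deposited file values were linear intensities per probe set, scaled by the authors to a shared trimmed mean, as the values show. Their software and background correction are not stated in the labels or files. After 66 of 12488 probe sets were left out as controls, the 12422 others were quantile normalized, since array medians differed 1.47-fold. Intensities under the 25th percentile (23.025) were raised to it, log2 was taken, and the 10331 probe sets exceeding it on 3 or more arrays were fitted by group means in limma 3.58.1 (R 4.3.3), with 8 residual degrees of freedom, an intensity trend and Benjamini-Hochberg adjustment. The number of arrays limits the precision. Groups and replicate numbers came from the labels.

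Arrays of equal number deviated together from their group means (r = 0.390, 0.711 and 0.660 in QF; 0.182, 0.114 and 0.231 in TA), so the numbers were taken to pair arrays within a muscle, from the data and not from the labels. Symbols came from the platform annotation: 10833 probe sets had 1 symbol, 396 several and 1193 none. The members and lists were chosen with earlier results of these data known. The named genes were all members, the list genes called in QF or TA or otherwise up to 3 with the smallest p in QF, and the 8 most alike by each correlation. The fit was tested on simulated data. Alternatives covered scaling, floor, filter, variance trend, array weights, the block and arrays left out.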

Additional observations from a re-analysis of the deposited data

Results flagged for a closer look

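Ddit4 differed by -0.80 in QF and by 0.85 in TA (log2, Dysf_null minus Control, n = 3 each), and in each muscle all Dysf_null arrays lay on one side of all Control arrays. The difference between the muscles was not tested, because the gene had been picked on QF. Cebpd, a glucocorticoid-induced transcription factor of the C/EBP family, differed by -0.75 in QF and 0.23 in TA, with all Dysf_null arrays below all Control arrays in QF and above them in TA; the test of that difference did not pass (limma interaction, adjusted p = 0.349).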

How the results depend on the processing

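The number of probe sets called in QF, 47 of all tested, was 273 with the replicate block, 23 with array weights, 16 without both QF arrays numbered 2, 7 without the intensity trend, and 0 with scaling to the median or with each muscle fitted alone. Leaving out 1 array gave 21 to 82. In TA the 42 calls were 159 with the replicate block, 192 with array weights and 27 with scaling to the median, and 14 to 45 with 1 array left out. The member probe sets called in TA, 0 as reported and 0 with any array left out, were 1 with the replicate block and 2 with array weights. The causes of these shifts were not tested. The members' median QF difference of -0.92 moved to -1.22 with the other probe set of Glul and Cdkn1a (an alternative chosen after seeing the data, as were the correlations within 1 muscle) and lay between -1.06 and -0.90 with 1 array left out. The TA median stayed between -0.31 and -0.13 under all 24 alternatives. The median correlation after removal of group means, -0.01, was 0.39 with scaling to the median and -0.003 without further scaling. The block changed no other call among the members. With 3 arrays a group, small differences could not be resolved.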
